A study of Mus musculus with 22 samples.

Results

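The pentraxins examined here were Ptx3 (pentraxin 3), Nptx1 (neuronal pentraxin 1), Nptx2 (neuronal pentraxin 2, also called Narp) and Nptxr (the neuronal pentraxin receptor), 4 of the 53379 genes in the count table and found in it by their Ensembl identifiers. All 4 passed the filter on low counts, which kept 40714 genes. They were selected on earlier results for kainate against sham in these libraries, so their kainate differences are given as a description as are their differences between fractions after kainate, which use the same kainate libraries. Tests are given for other comparisons, which also use libraries of that contrast and so are not independent of the choice of members. Libraries came from the left hippocampus of adult male C57/BL6N mice, taken 24 h after status epilepticus. Kainate (70 nl, 20 mM) had been injected above the right hippocampus, so the tissue lay contralateral to the injection, and sham mice received 0.9% NaCl at the same place. Mice arrived at 8 weeks of age and were acclimatized for 4 weeks, and only kainate mice with convulsive seizures of Racine grade 5 were kept, so the kainate group is a selected one. The 8 mice of each treatment were combined into 3 pools, 1 of 4 mice and the others of 2. The neuronal antigen NeuN was then used to separate nuclei into NeuN+ nuclei (called neurons) and NeuN– nuclei (called glia, a fraction that mixes several glial types and can hold other NeuN– cells). This gave 3 kainate neuron, 3 sham neuron, 3 kainate glia and 2 sham glia libraries, the sham glia library of pool 2 being absent.

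Pentraxins are secreted or membrane-bound proteins that share a C-terminal pentraxin domain and assemble into multimers. Ptx3 is a long pentraxin of the humoral innate immune system. It is made by myeloid, endothelial, stromal and glial cells on inflammatory stimulation and binds complement component C1q and microbial surfaces. Nptx1 and Nptx2 are secreted by neurons, gather at excitatory synapses and cluster AMPA-type glutamate receptors, and Nptxr is the membrane-anchored relative with which they form complexes. Nptx2 is an immediate early gene of neuronal activity.

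The start of Ptx3 is shown because Ptx3 was the member whose glial level differed most between kainate and sham. Of the 4 members, 1 was in the RefSeq promoter table of GRCm38.p6. Its window, chr3:66219637-66219936 on the + strand, holds 250 bases before and 50 after the RefSeq start. Capitals mark overlapping matches to the NF-kappaB consensus.

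Ptx3: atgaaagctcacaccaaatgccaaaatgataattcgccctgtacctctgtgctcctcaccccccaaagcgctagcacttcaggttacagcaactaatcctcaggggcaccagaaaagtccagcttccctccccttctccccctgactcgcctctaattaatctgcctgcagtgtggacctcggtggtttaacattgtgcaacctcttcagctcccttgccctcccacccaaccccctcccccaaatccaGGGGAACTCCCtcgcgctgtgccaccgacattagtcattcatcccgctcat

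The capitals are 11 bases at chr3:66219886-66219896, just at the RefSeq start (base 66219887) and before the GENCODE gene start, which lies 23 bases further on. They held 3 overlapping matches over both strands. Of 32851 promoter windows of this length in the table, 8.46% held at least 1 match to this consensus. The AP-1 letters TGANTCA (in 7.81% of windows), the cAMP response element TGACGTCA (1.79%), its shorter part TGACG (20.8%) and the STAT letters TTCNNNGAA (8.30%) did not occur in the Ptx3 window on either strand. Nptx1, Nptx2 and Nptxr had no entry.

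In the mm10 build, Ptx3 (ENSMUSG00000027832) spans chr3:66219910-66225805 on the + strand with 2682 exonic bases, inside the span of the oppositely oriented Veph1 but sharing no exonic base with it. Nptx1 (ENSMUSG00000025582) lies at chr11:119538719-119547753 on the – strand with 5217 exonic bases. Nptx2 (ENSMUSG00000059991) lies at chr5:144545902-144557478 on the + strand with 2536 exonic bases. Nptxr (ENSMUSG00000022421) lies at chr15:79786351-79804766 on the – strand with 5170 exonic bases, of which 890 are shared with Npcd on the same strand. Npcd had 0 counts in all 11 libraries, so reads on the shared bases may have been assigned to neither gene and the Nptxr level is uncertain to that extent.

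Library totals ran from 12058875 to 45428465 counts. Kainate glia library 2 and sham glia library 1 were made from low RNA input (0.05 ng, 15 PCR cycles), the other 9 from 1 ng with 10 cycles. The sort was visible in its markers: Rbfox3, which encodes NeuN, was at 171 to 278 CPM (counts relative to library size, scaled by the TMM method) in neurons and 23.8 to 49.2 in glia. Mbp of oligodendrocytes was at 81.0 to 139 in neurons and 640.3 to 4705 in glia, Cx3cr1 of microglia at 4.27 to 6.80 and 106 to 564, and Aldh1l1 of astrocytes at 1.75 to 11.9 and 20.3 to 53.8. Each fraction therefore also contained transcripts that mark the other.

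Ptx3 transcripts were scarce in sham hippocampus and higher in every kainate library of both fractions. In sham neurons Ptx3 was at 1.75, 0.57 and 0.74 CPM in libraries 1, 2 and 3, which rested on only 26, 20 and 23 reads. In kainate neurons it was at 8.18, 5.79 and 20.7 CPM (115, 227 and 460 reads). The lowest kainate library stood above the highest sham library, and the fitted log2 fold change was 3.56 (SE 0.72), an 11.8-fold difference. In glia the sham libraries 1 and 3 held 3.64 and 2.08 CPM (57 and 42 reads). The kainate glia libraries held 176, 60.0 and 31.6 CPM (2814, 1769 and 1125 reads). Again the groups did not overlap, with a log2 fold change of 4.97 (SE 0.89) or 31.3-fold, while the kainate glia libraries themselves varied widely (SD 76.8 around a mean of 89.4 CPM, n = 3). The 4 groups followed one another without any overlap of neighbours: kainate glia, kainate neurons, sham glia, sham neurons.

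Nptx2, the activity-regulated secreted neuronal pentraxin, was the other member whose kainate libraries all stood above the sham libraries in both fractions. In sham neurons it was at 53.2, 21.5 and 20.8 CPM. In kainate neurons it was at 537, 217 and 299 CPM, a log2 fold change of 3.46 (SE 0.53) or 11.03-fold. Pool 1 was the highest of the 3 in both treatments, and the ratio of same-numbered kainate and sham libraries was 10.1, 10.1 and 14.4. Without sham neuron library 1 the log2 fold change was 4.05. In glia Nptx2 was at 11.6 and 5.60 CPM in sham libraries 1 and 3 and at 37.2, 32.9 and 57.8 CPM in kainate libraries, a log2 fold change of 2.31 (SE 0.59). Over the 4 groups the order was kainate neurons, kainate glia, sham neurons and sham glia, in which only kainate glia (32.9 to 57.8 CPM) and sham neurons (20.8 to 53.2 CPM) overlapped.

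Nptx1, the abundant secreted neuronal pentraxin, overlapped between treatments in both fractions. It was at 1133, 1012 and 951 CPM in kainate neurons and 1169, 609 and 699 CPM in sham neurons. Its log2 fold change in neurons was 0.32 (SE 0.42, 95% interval -0.57 to 1.21). In glia it was at 69.3, 154 and 176 CPM after kainate and 78.8 and 84.2 CPM in sham mice, where the log2 fold change was 0.71 (SE 0.47, 95% interval -0.31 to 1.73). Kainate glia library 1 was the lowest of these 5 and the other kainate glia libraries were the highest.

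Nptxr, the membrane-anchored partner, also overlapped between treatments. It was at 758, 549 and 447 CPM in kainate neurons against 693, 302 and 268 CPM in sham neurons, a log2 fold change of 0.47 (SE 0.44, 95% interval -0.47 to 1.42). In glia it was at 74.4, 117 and 88.2 CPM after kainate against 88.7 and 46.9 CPM in sham mice, a log2 fold change of 0.46 (SE 0.50, 95% interval -0.61 to 1.53). Pool 1 was the highest of the 3 neuron pools in both treatments, as for Nptx2. The ratio of same-numbered kainate and sham libraries was 1.09, 1.82 and 1.67 in neurons, and 0.84 and 1.88 in glia.

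**Figure D1:**
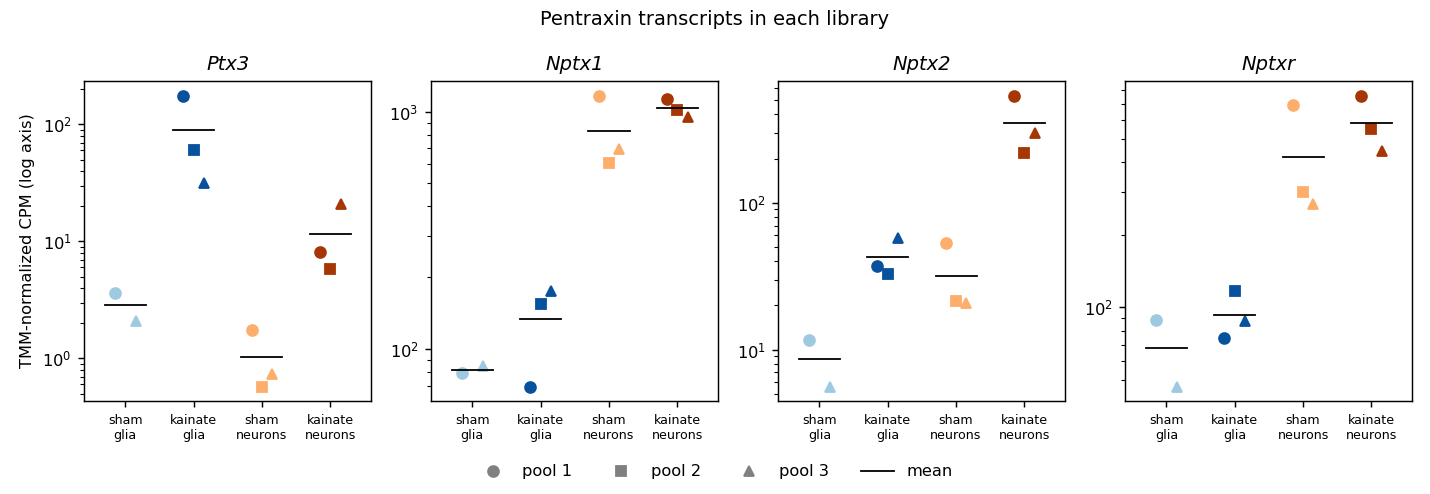
Level of each pentraxin gene in each of the 11 libraries (y axis, TMM-normalized CPM on a log axis, a scale of its own in each panel) by group on the x axis. Point shapes give the pool number and lines the group mean. Ptx3 and Nptx2 kainate libraries lie above the sham libraries of the same fraction, while Nptx1 and Nptxr overlap between treatments.

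A call is a false discovery rate (FDR) below 0.25, the study's threshold, in edgeR's quasi-likelihood test with Benjamini-Hochberg adjustment over all 40714 genes. The paper analysed the fractions separately, and its lists of genes higher after kainate are longer than those here. Homer1 and Ptgs2 in neurons and Il1r1 in glia, for instance, are on them but not called here. For the 4 members the kainate calls are the same. In neurons 2 of 4 members (Ptx3 and Nptx2) were called higher after kainate, where 0.157% of all tested genes were. In glia 1 of 4 (Ptx3) was called higher, where 0.0933% of all genes were. Kainate libraries stood above all sham libraries, with no overlap, for Ptx3 and Nptx2 in neurons (4.26% of all genes) and for the same pair in glia (4.7% of all genes). Because the members were chosen by this contrast, nothing is read from these counts. With a replicate block, which compares same-numbered kainate and sham libraries, Nptxr in neurons (log2 fold change 0.58) and Nptx2 in glia (2.51) were called too. The DESeq2 Wald test also called Nptx2 in glia. With low RNA input as a covariate Ptx3 was called in neither fraction, and in a separate fit per cell type it was not called in glia. The Ptx3 call in neurons was lost without kainate neuron library 1, 2 or 3, sham neuron library 2 or 3, or kainate glia library 2 (log2 fold change 3.75, 3.88, 2.82, 3.25, 3.37 and 3.55). Its call in glia was lost without kainate glia library 1 or 2 or sham glia library 1 (3.91, 5.19 and 5.45), and the Nptx2 call in neurons without sham neuron library 2 or 3 (3.25 and 3.23).

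Whether the kainate response differed between fractions was tested as the effect in neurons minus the effect in glia. None of the 4 members was called (each FDR 1.00 by edgeR's quasi-likelihood test), none had an unadjusted p below 0.05, and the DESeq2 Wald test called none either. Of all genes 0.00246% were called in either direction. For Ptx3 the difference was -1.41 on the log2 scale (SE 1.00, 95% interval -3.56 to 0.74), the estimate being larger in glia. For Nptx2 it was 1.15 (SE 0.72, 95% interval -0.39 to 2.70), the estimate being larger in neurons. The intervals for Nptx1 (-0.39, from -1.73 to 0.95) and Nptxr (0.01, from -1.41 to 1.43) spanned 0 as well. With the replicate block the differences were -1.30 (SE 0.48) for Ptx3 and 0.99 (SE 0.34) for Nptx2, again not called (FDR 0.37 and 0.26 by edgeR), although this fit called 502 genes higher and 286 lower over all genes. With single libraries left out, the estimate for Ptx3 ran from -2.14 without kainate neuron library 3 to -0.35 without kainate glia library 1. That for Nptx2 ran from 0.52 without sham glia library 1 to 1.74 without sham neuron library 1. Over all alternatives the Nptx2 difference fell to 0.365.

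**Figure D2:**
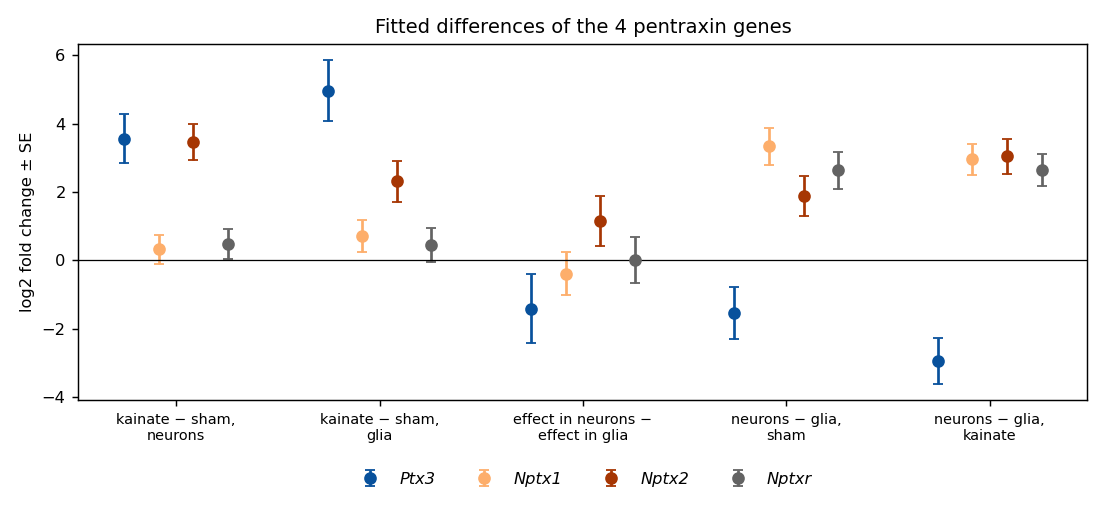
Fitted log2 fold changes (y axis) of the 4 members in 5 comparisons (x axis), with bars of 1 standard error. Ptx3 alone lies below 0 in both comparisons of neurons with glia (-1.54 and -2.95), while Nptx1, Nptx2 and Nptxr lie above 0 there.

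Ptx3 lay on the glial side and the neuronal pentraxins on the neuronal side in both treatments. In sham mice Nptx1 was higher in neurons than in glia by 3.34 on the log2 scale (SE 0.54, FDR 0.0020 by edgeR), a 10.1-fold difference. Nptxr was higher by 2.64 (SE 0.55, FDR 0.0073) and Nptx2 by 1.89 (SE 0.58, FDR 0.061). These were 3 of 4 members, where 9.11% of all genes were called higher in sham neurons. The Nptx2 difference was 1.30 without sham neuron library 1 and 2.54 without sham glia library 1, called both times. Ptx3 was lower in every sham neuron library than in either sham glia library. Its difference of -1.54 (SE 0.75, FDR 0.31) was not called and rested on counts of 20 to 57, and 7.63% of all genes were called lower in sham neurons. It passed the threshold (FDR 0.19, 0.19, 0.13 and 0.21) when sham neuron library 1, kainate glia library 1, kainate glia library 3 or sham glia library 3 was left out, with differences of -2.11, -1.58, -1.80 and -1.90.

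After kainate Nptx2 was higher in neurons by 3.04 on the log2 scale (SE 0.52), an 8.22-fold difference, Nptx1 by 2.95 (SE 0.45) and Nptxr by 2.65 (SE 0.47). Ptx3 was lower in neurons by 2.95 (SE 0.67), that is, 7.73-fold higher in glia. These 3 higher and 1 lower members were all called, where 11.3% of all genes were called higher and 9.39% lower in neurons. Nothing is read from these calls, since the kainate libraries compared had also been used to choose the members. Within single pools the glial Ptx3 level was 21.6, 10.4 and 1.53 times the neuronal level in kainate pools 1, 2 and 3. The ratio was smallest in pool 3, with 31.6 CPM in glia and 20.7 CPM in neurons. The fitted difference was -3.46 without its glia library and -3.68 without its neuron library. Without kainate glia library 1, which had the highest Ptx3 level, it was -1.92.

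The fractions also varied in their markers from pool to pool, and these values stand beside the members. The summed level of 6 astrocyte markers in kainate glia was 2382, 1280.3 and 524 CPM in libraries 1, 2 and 3, in the same order as Ptx3. The summed markers of microglia, oligodendrocytes, oligodendrocyte precursors, pericytes and fibroblasts had this order too, while endothelial markers ran the other way (19.0, 26.2 and 31.4 CPM). Markers of blood myeloid cells (8.15, 7.36 and 12.7 CPM) and neurons (768, 978 and 708 CPM) followed neither order. The level of the astrocyte markers in neurons was 11.2%, 28.0% and 74.2% of that in glia of the same kainate pool, beside 4.64%, 9.64% and 65.5% for Ptx3. These shares were 4.12%, 6.40% and 11.98% for microglial and 0.715%, 3.30% and 9.08% for oligodendrocyte markers. Precursor markers had 2.37%, 7.54% and 24.4%, pericyte markers 9.31%, 28.4% and 57.01%, and endothelial markers 16.1%, 52.9% and 60.6%. Fibroblast and blood myeloid markers had 53.5% to 99.3% and 42.8% to 53.8%. By group means after kainate, Slc1a2 in neurons was at 57.1% of glia, Aldh1l1 at 26.4%, Aqp4 at 7.79% and Gja1 at 5.72%. In sham pools 1 and 3 the shares were 8.82% and 26.8% for the astrocyte markers and 47.9% and 35.6% for Ptx3. Astrocyte markers summed to 268 to 388 CPM in kainate neurons and 175 to 243 CPM in sham neurons, ranges that did not overlap, and in glia to 524 to 2382 CPM after kainate and 771 to 2751 CPM in sham mice. None of the 6 was at 0 in any group. None was called between treatments by edgeR, where 2 in neurons (Aqp4 at 1.51 and Gfap at 1.90 on the log2 scale) and 1 in glia (Gfap at 1.86) had an unadjusted p below 0.05, and the DESeq2 Wald test called 1, Gfap, in each fraction. The list split in sign, with 4 of 6 positive in neurons and 3 of 6 in glia. Gja1 had -0.714 in neurons and -1.496 in glia, Aldoc -0.39 and -1.24, and Slc1a2 0.69 and -1.01. Aqp4, Gfap, Gja1, Aldoc and Slc1a2 are named after their values were seen. The 5 microglial markers also had higher sums in every kainate neuron library (64.5, 62.4 and 66.7 CPM) than in any sham neuron library (61.4, 41.2 and 47.5 CPM). Of these markers 3 of 5 had a positive fold change in neurons (median 0.06), none was called by edgeR or the DESeq2 Wald test, and 1, Csf1r (1.14, SE 0.51, named after its value was seen), had an unadjusted p below 0.05. The sums of the other non-neuronal marker lists overlapped between treatments in neurons. The part of astrocyte and microglial transcripts in the neuronal Ptx3 difference was not tested. In bulk libraries of sorted nuclei, fewer cells of a type and less RNA per cell cannot be told apart.

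Ptx3 is also known from other non-neuronal cells, and the ranges of their summed markers in glia overlapped between treatments. The 2 sham glia libraries were far apart in several of these sums. In kainate and sham glia, 5 microglial markers summed to 557 to 1565 and 611 to 3163 CPM, 5 endothelial markers to 19.0 to 31.4 and 17.3 to 33.3, and 5 pericyte markers to 38.9 to 112 and 64.0 to 149. The 5 fibroblast markers summed to 53.8 to 70.6 and 63.2 to 79.2 CPM, and 7 markers of blood myeloid cells to 7.36 to 12.7 and 7.86 to 16.4 CPM. No marker of these lists was at 0 throughout either glia group, and none of those tested was called between treatments in glia by edgeR. Fold changes in glia were negative for 5 of 5 microglial markers (median -0.75), 5 of 5 pericyte markers (-0.24), 5 of 5 oligodendrocyte markers (-0.72) and 4 of 4 precursor markers (-0.97). They were positive for 2 of 5 endothelial (median -0.05), 1 of 5 fibroblast (-0.20) and 3 of 6 tested blood myeloid markers (-0.02). Of the markers of these lists 1, the microglial P2ry12 (-2.51, SE 0.65, named after its value was seen), had an unadjusted p below 0.05 in glia and was called by the DESeq2 Wald test. The part of these markers in the glial Ptx3 difference was not tested. Of the blood myeloid markers S100a8 was at 0 in all kainate neuron libraries.

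The neuronal pentraxins in glia stood beside the neuronal markers. The summed level of 8 neuronal markers in glia was 12.9%, 21.6% and 23.7% of that in neurons of kainate pools 1, 2 and 3, and 12.6% and 16.4% in sham pools 1 and 3. For Nptx1 the shares were 6.12%, 15.2% and 18.5% after kainate and 6.74% and 12.1% in sham pools. For Nptxr they were 9.82%, 21.3% and 19.7% after kainate and 12.8% and 17.5% in sham pools. Nptx2 had 6.93%, 15.2% and 19.3% after kainate and 21.8% and 27.0% in sham pools. The glial levels of all 3 were thus at most 27.0% of the neuronal level of the same pool. The neuronal markers in glia summed to 708 to 978 CPM after kainate and 549 to 856 CPM in sham mice, none at 0, and their part in the glial values of the neuronal pentraxins was not tested.

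**Figure D3:**
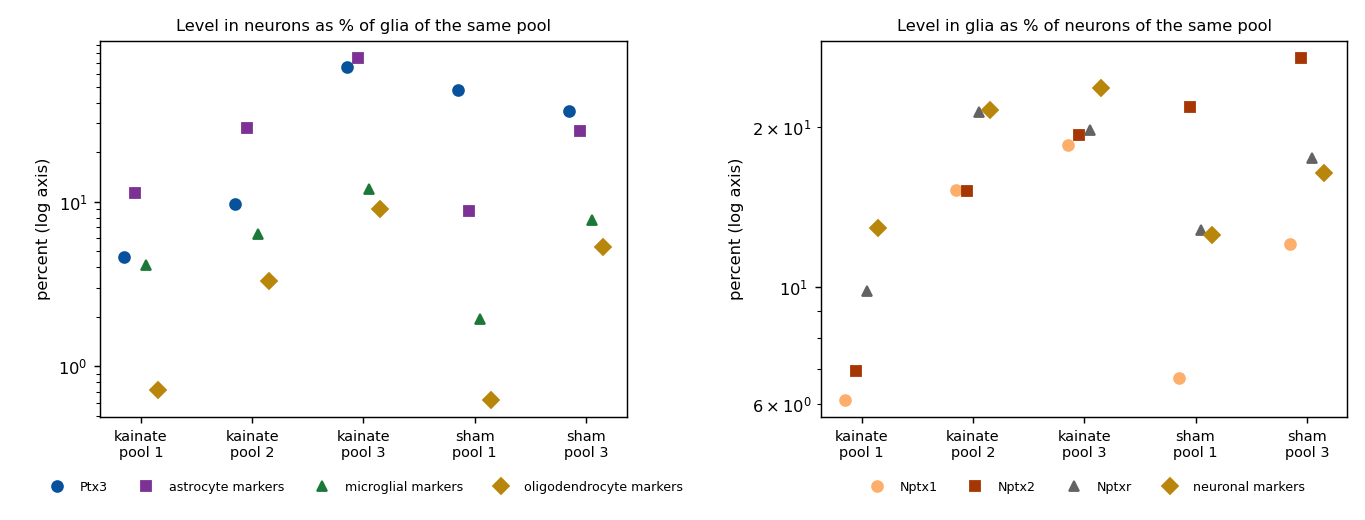
Left, the level in neurons as a percent of that in glia of the same pool for Ptx3 and for summed glial markers. Right, the level in glia as a percent of that in neurons for the neuronal pentraxins and summed neuronal markers. Both y axes are logarithmic, and each x position is 1 pool. Ptx3 runs from 4.64% to 65.5% over the kainate pools and the astrocyte markers from 11.2% to 74.2%.

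Compared per length, as CPM per kilobase of exon, Nptx1 was the most abundant pentraxin of sham neurons at 158 ± 57.7 (SD, n = 3). Nptxr followed at 81.4 ± 45.6, with a range that overlapped that of Nptx1, and then Nptx2 at 12.6 ± 7.31 and Ptx3 at 0.38 ± 0.24, each apart from its neighbour. In kainate neurons the order was Nptx1 at 198 ± 17.7, Nptx2 at 138 ± 65.5, Nptxr at 113 ± 30.7 and Ptx3 at 4.31 ± 2.99, where the ranges of neighbours overlapped except for Ptx3. In sham glia Nptx1 was at 15.6 ± 0.74, Nptxr at 13.1 ± 5.72, Nptx2 at 3.40 ± 1.68 and Ptx3 at 1.07 ± 0.41 (n = 2), and the ranges of Nptx1 and Nptxr overlapped. In kainate glia Ptx3 had the highest mean at 33.3 ± 28.6, above Nptx1 at 25.5 ± 10.8, Nptxr at 18.05 ± 4.23 and Nptx2 at 16.8 ± 5.24, but all 4 ranges overlapped. With the exonic bases that Nptxr shares with Npcd left out, Nptxr was at 98.4 in sham neurons and 15.8 in sham glia.

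**Figure D4:**
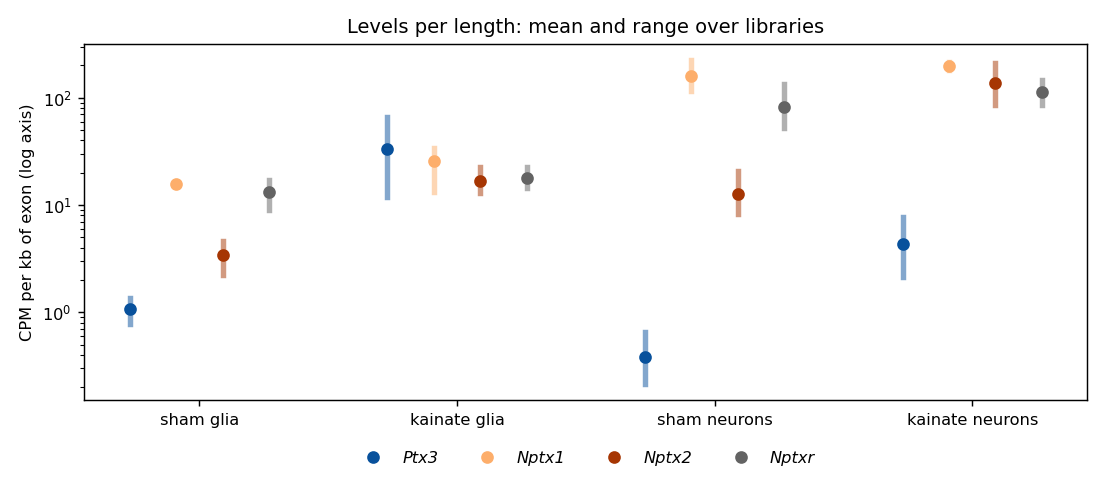
Mean (points) and range over libraries (bars) of the 4 members in CPM per kilobase of exon on a log axis, by group. Within each treatment the neuronal pentraxins are higher in neurons than in glia, and in kainate glia the 4 ranges overlap, with Ptx3 from 11.8 to 65.8.

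Across the 11 libraries, Nptx1 and Nptxr had the most similar log2 CPM (Pearson r = 0.965), Nptx2 was less like either (0.677 with Nptx1 and 0.739 with Nptxr), and Ptx3 differed from all (-0.414, 0.307 and -0.320 with Nptx1, Nptx2 and Nptxr). These r values describe libraries that share pools and fall into 4 groups, so each mainly reflects group levels. Among 18571 other genes with a mean log2 CPM of at least 1, Ptx3 was most like Tnfrsf12a (r = 0.977), Socs3 (0.963) and Myc (0.959). Socs3, a feedback inhibitor of cytokine signalling, was at 375 to 650 CPM in kainate glia, 39.8 to 91.1 in kainate neurons, 10.3 to 10.7 in sham glia and 3.06 to 3.22 in sham neurons. Nptx2 was most like Arc (0.980), Npy (0.974) and Rgs4 (0.969). Arc, an immediate early gene of synaptic plasticity, was at 567 to 816 CPM in kainate neurons, 125 to 185 in kainate glia, 103 to 221 in sham neurons and 36.6 to 71.2 in sham glia. Nptx1 was most like the predicted gene Gm42853 (0.995), Celf4 (0.994) and Rapgef4 (0.994), and Nptxr most like Fhl2 (0.995), Pam (0.995) and the predicted gene Gm42517 (0.993).

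Genes induced by neuronal activity formed the list nearest to Nptx2 in kind. All 12 had a positive fold change in both fractions, with a median log2 fold change of 2.04 in neurons and 2.02 in glia beside medians over all genes of -0.01 and 0.02. In neurons 4 of 12 were called by edgeR, all higher, while 12 had an unadjusted p below 0.05 and the DESeq2 Wald test called 11. Of all genes 0.157% were called higher in neurons by edgeR, 849 of 40714 had an unadjusted p below 0.05, and DESeq2 called 292 higher. The 4 list genes were Fosb (3.30, SE 0.57, FDR 0.11), Fos (3.09, SE 0.59, FDR 0.15), Egr2 (2.63, SE 0.51, FDR 0.15) and Arc (2.16, SE 0.43, FDR 0.17) in edgeR's test. Fos, Fosb and Egr2 encode transcription factors, and Egr2 is named after its value was seen. In glia 9 of 12 had an unadjusted p below 0.05 and DESeq2 called 8, while edgeR called 3, all higher: Fos (5.67, SE 0.80, FDR 0.076), Egr1 (4.21, SE 0.69, FDR 0.082) and Junb (3.78, SE 0.64, FDR 0.10). Of all genes 0.0933% were called higher in glia by edgeR, 834 of 40714 had an unadjusted p below 0.05, and DESeq2 called 191 higher. Arc had 1.44 (SE 0.48, FDR 1.00) there. In sham mice 10 of 12 were called higher in neurons than in glia and none lower, beside 9.11% and 7.63% of all genes.

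The A2 astrocyte list, named for a reactive state described after ischaemia, holds Ptx3 itself, which was left out. Of its 11 other genes, 11 had a positive fold change in glia and 10 in neurons, with medians of 1.87 and 1.76. In glia 8 had an unadjusted p below 0.05 and DESeq2 called 5, while edgeR called 3, all higher: Tm4sf1 (4.22, SE 0.64, FDR 0.076), a tetraspanin-like surface protein, Emp1 (4.05, SE 0.64, FDR 0.076), an epithelial membrane protein, and Sphk1 (3.44, SE 0.63, FDR 0.14), which makes sphingosine 1-phosphate. In neurons 6 had an unadjusted p below 0.05 and DESeq2 called 6, while edgeR called 1, the cytokine gene Clcf1 (2.61, SE 0.48, FDR 0.14). Beside these stand the 0.0933% of all genes called higher by edgeR in glia and 0.157% in neurons, and the 834 and 849 of 40714 with an unadjusted p below 0.05. Clcf1 was at 25.5 to 63.8 CPM in kainate glia and 6.26 to 11.5 in kainate neurons. Ptgs2 belongs to this list and to the activity-regulated one. The astrocyte marker sums given above stand beside this list as well, and their part in it was not tested.

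None of the 12 listed binding partners of Ptx3 or the 10 listed inducers and signalling genes was called between treatments in either fraction by edgeR. The 10 inducers and signalling genes, among them interleukin-1, tumour necrosis factor, Toll-like receptor 4 and NF-kappaB subunits, had a median log2 fold change of 0.22 in neurons and 0.96 in glia, with 7 and 9 of 10 positive. They ranged in glia from -0.60 to 3.38, and 3 had an unadjusted p below 0.05 there: Tnf (3.38, SE 1.00), Il1b (1.94, SE 0.89) and Il1r1 (1.69, SE 0.47), named after their values were seen. The DESeq2 Wald test called 1 of them in glia, Il1r1, and none in neurons, where 0 had an unadjusted p below 0.05. The paper lists Il1r1 among its upregulated glial genes. The 12 binding partners had medians of 0.10 and -0.18, with 6 and 4 of 12 positive. Of these 0 in neurons and 1 in glia (Fgf2, named after its value was seen) had an unadjusted p below 0.05, and DESeq2 called 0 in both. Of the inducers, 5 were called lower and 1 higher in sham neurons than in sham glia, beside 7.63% and 9.11% of all genes.

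The binding and processing partners of the neuronal pentraxins showed no called change. None of the 9, among them the 4 AMPA receptor subunits, was called between treatments in either fraction by edgeR or DESeq2, and 0 had an unadjusted p below 0.05. Their medians were -0.31 in neurons and -0.39 in glia, with 4 and 2 of 9 positive. In sham mice 6 of 9 were called higher in neurons, beside 9.11% of all genes. Adam17, the protease that cleaves Nptxr from the membrane, was called lower there (-1.64, SE 0.46, FDR 0.037), as were 7.63% of all genes, and is named after its value was seen. The other pentraxins of the mouse, Crp, Apcs, Mptx1, Mptx2 and Ptx4, reached at most 4.25 CPM in any library and none of the 5 was called between treatments by edgeR or DESeq2 or had an unadjusted p below 0.05, with medians of -0.55 in neurons and 0.21 in glia.

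**Figure D5:**
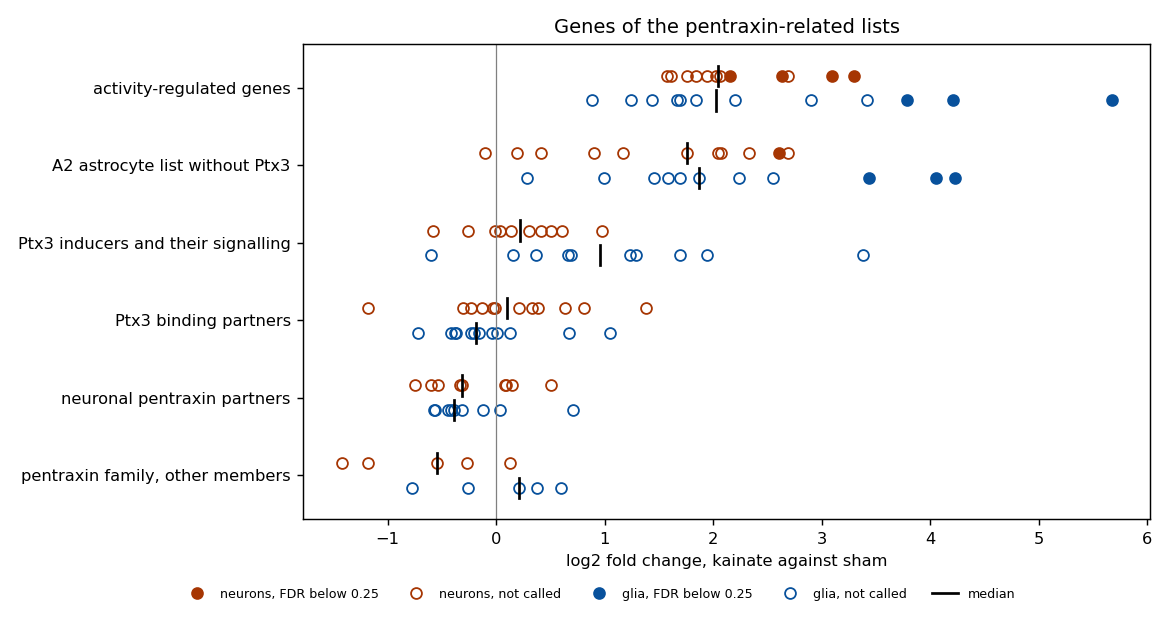
Log2 fold change of kainate against sham (x axis) for every tested gene of 6 lists (y axis), neurons in brown and glia in blue. Filled points passed an FDR of 0.25 and short bars are list medians. Called genes lie in the activity-regulated and A2 lists, while the inducers, binding partners, neuronal pentraxin partners and other pentraxins have open points throughout.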

How the data were processed

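The mRNA libraries (SMART-Seq v4, not stranded) were prepared by the authors from sorted nuclei. They trimmed reads with Trim Galore 0.4.3, aligned them to mm10 with Rsubread and counted uniquely mapped reads with featureCounts on GENCODE M16. The deposited values are these raw counts, and here they were the starting point. One label describes right hippocampi, whereas the titles and the paper give the left, which was used. The 11 methylation samples were not analysed here.

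Genes without a symbol (105) were left out, filterByExpr kept 40714, and counts were TMM-scaled. A model of 4 group means was fitted in edgeR 4.0.16 (R 4.3.3, quasi-likelihood, legacy method), with Benjamini-Hochberg adjustment over all genes and an FDR threshold of 0.25. The prior and residual degrees of freedom set the 95% intervals. CPM values are counts relative to TMM-scaled library sizes. Exon lengths and positions came from GENCODE M21 (mm10), not M16. Promoter windows and motif shares came from RefSeq. The fit was tested on simulated counts without pool effects, with large changes placed only in genes well above the sham level of Ptx3. That test therefore does not cover pairing or counts as low as those.

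The members, gene lists and motifs were chosen with earlier results of these data known. Lists are described by counts and medians, and 1 result on the binding partners is not reported here. Named list genes were those called in neurons or glia (the 4 smallest p per list), and the 3 genes most correlated with each member. Alternatives were another scaling, DESeq2 1.42.0, other filters, FDR 0.05, blocks, low input and each library left out.

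Same-numbered kainate and sham libraries deviated together from their group means (correlations 0.643, 0.161 and 0.491 in neurons, 0.760 and 0.787 in glia). The 2 glia correlations are not separate, since the 2 sham glia libraries deviate from their mean by equal and opposite amounts. A replicate block that pairs same-numbered libraries was therefore fitted as an alternative. The main fit did not use the pairing. This pairing comes from the data, since no source states what the number shares across treatments. Libraries of both fractions with the same number and treatment were taken as 1 pool. No 2 libraries were identical.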

Additional observations from a re-analysis of the deposited data

How the results depend on the processing

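Each of 20 member results was recomputed under 22 or 23 alternatives. Of 448 values, 411 kept their direction and side of the threshold, 19 lost the call, 9 gained one and 9 changed sign, none of the last for a called result. At an FDR of 0.05, Ptx3 (3.56 in neurons and 4.97 in glia) and Nptx2 (3.46 in neurons and 1.89 for neurons against glia in sham mice) were not called. The DESeq2 Wald test called Nptx2 in glia (2.22) and Ptx3 between sham fractions (-1.63), and the stricter filter called the latter too (-1.65). With low RNA input as a covariate Ptx3 lost its calls (3.55 in neurons and 4.92 in glia), and without both low-input libraries (5.67) or in a separate fit per cell type (4.995) it lost that in glia. With the replicate block within each cell type Nptxr in neurons (0.58) and Nptx2 in glia (2.51) were called. No other member's call changed, nor did any under the replicate block by pool. The difference between fractions in the kainate effect of Nptxr, 0.01, was -0.031 with the stricter filter, -0.15 with the covariate and -0.34 without the low-input libraries. Leaving out single libraries gave -0.54 to 0.58 for this difference, -0.64 to 0.0091 for that of Nptx1, 2.82 to 4.13 for Ptx3 and 3.02 to 4.05 for Nptx2 in neurons, 3.91 to 5.45 for Ptx3 and 1.86 to 2.95 for Nptx2 in glia, and -2.11 to -1.06 for Ptx3 between sham fractions. Over all alternatives Nptx2 in glia reached 3.10. A group left with 1 library was assumed to vary like the others. The cause of these changes was not tested. For 8 named genes of the lists, 273 such values kept their side of the threshold, 53 lost a call and 42 gained one. Over all genes, the count called higher in neurons was 64, but 8 at an FDR of 0.05, 292 with DESeq2 and 1299 with the block, and in glia 38, but 1, 191 and 1194. Leaving out single libraries gave 5 (without sham neuron library 2 or 3) to 160 (without sham glia library 3) in neurons, and 1 (without sham glia library 1) to 2359 (without sham glia library 3) in glia. The separate edgeR fit called 324 higher in neurons and 0 in glia, where 426 genes had an unadjusted p below 0.05. Without length, Nptxr ranked above Nptx2 in kainate neurons and Nptx1 and Nptxr above Ptx3 in kainate glia, and with unshared exonic bases (an alternative chosen after seeing the data) Nptxr ranked above Nptx1 in sham glia. Ptx3 in sham neurons rested on 20 to 26 reads a library, which limits its folds. The p-values of the main fit measure the spread between libraries within groups. That fit took the 11 libraries as independent, although both fractions came from the same pools.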
